A study of Mus musculus with 6 samples.

Results

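The 9 genes described here, Gata6, Gata4, Sox17, Sox7, Foxa2, Hnf4a, Pdgfra, Dab2 and Cubn, are markers of primitive and definitive endoderm. They were chosen by name, and all 9 are among the 22332 gene symbols of the deposited table. Their mRNA was measured in CGR8 cells, a line of mouse embryonic stem cells kept on gelatin in medium with 10% fetal bovine serum and the cytokine LIF. All cells received siRNA and were collected after 48 hours, when total RNA was extracted and depleted of ribosomal RNA. In the siRSL24D1 group (n = 3 libraries) the siRNA pool was directed against Rsl24d1, whose product helps to build the large subunit of the ribosome. In the siCtrl group (n = 3 libraries) the pool had no target. The comparison asks whether endoderm genes of pluripotent cells differ when this factor is reduced.

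Primitive endoderm is the layer of the blastocyst that lines the epiblast and later forms the visceral and parietal yolk sac endoderm. In the mouse embryo, cells of the inner cell mass choose between the Nanog-positive epiblast and the Gata6-positive primitive endoderm under FGF4 signalling, after which Pdgfra, Sox17, Gata4 and Sox7 come on in sequence. Definitive endoderm, the source of gut, liver and pancreas, arises later from the primitive streak and shares Sox17, Foxa2 and Gata6. Cultures of embryonic stem cells in serum and LIF can hold a few cells with endoderm marker expression.

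The libraries held between 30943635 and 35214000 estimated counts, and 17710 to 18201 genes had a count in each. Rsl24d1 was at 53.8, 55.6 and 52.1 CPM (counts scaled to the size of the library) in the siRSL24D1 libraries, against 99.4, 102.7 and 97.9 CPM in the siCtrl libraries. It fell by 0.89 on the log2 scale (SE 0.04, edgeR adjusted p = 2.02e-05), the direction the siRNA labels give. All 10 pluripotency markers listed were detected. Pou5f1, the core pluripotency factor, averaged 482 ± 28.6 CPM in siRSL24D1 and 482 ± 37.9 CPM in siCtrl (SD, n = 3 each). Pou5f1 does not stand for the whole list. At an edgeR adjusted p under 0.05, 2 of the 10 were higher and 4 lower, Nanog among the lower. Of all genes tested, 21.2% were higher and 20.0% lower. The series' design text calls the triplicates independent without saying what was separate, so the p-values measure the spread between these samples, which may be technical in part.

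Of the 9 endoderm markers, Gata4 and Gata6 rose and Dab2 and Pdgfra fell, all by less than 1.5-fold. Sox17, Foxa2, Hnf4a and Cubn did not pass the test, and Sox7 had too few counts to be tested. A change was called at an adjusted p under 0.05, adjusted over all 15084 genes tested. Among those genes 21.2% were called higher and 20.0% lower (41.2% in either direction), so 2 of 8 in each direction is near the background and is not a result about these markers as a set. The median log2 fold change of the 8 tested markers was 0.27, beside 0.02 for all genes tested. Among the 7204 genes whose average expression lay between that of Hnf4a and that of Pdgfra, 19.2% were called higher and 19.5% lower.

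**Figure D1:**
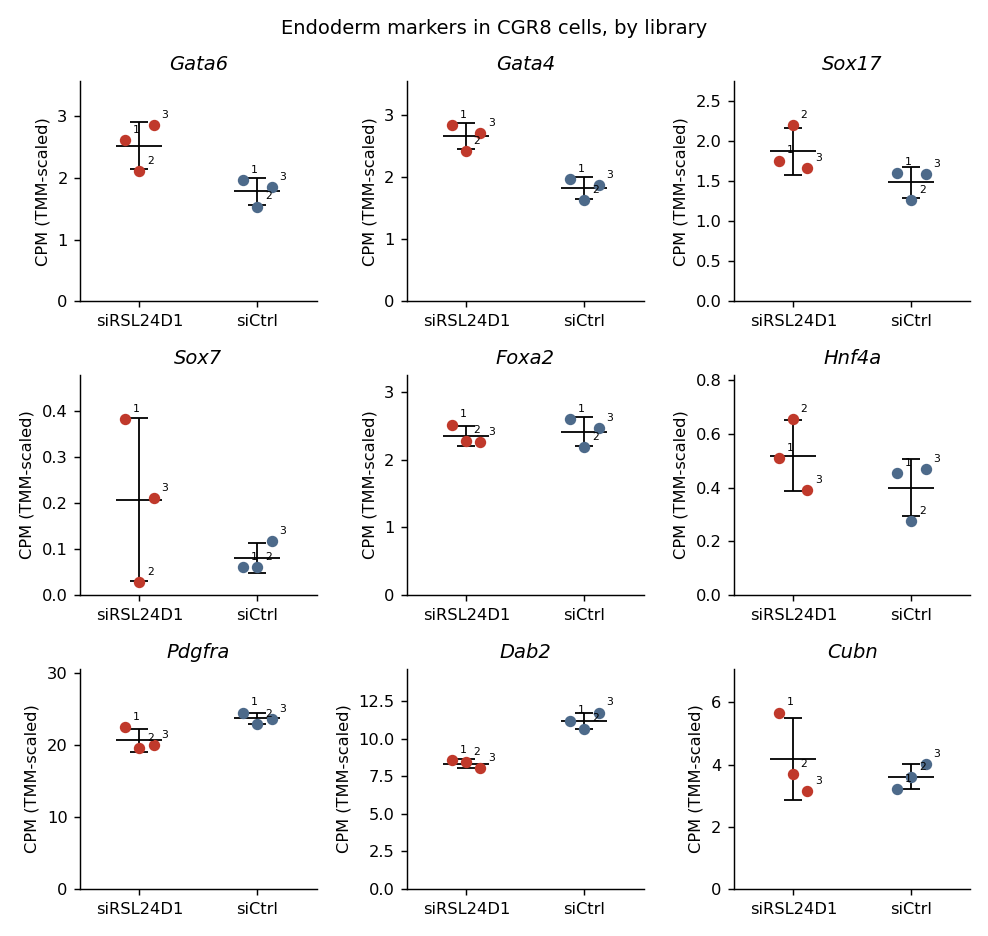
Level of each endoderm marker in TMM-scaled CPM (y axes, from 0), with siRSL24D1 on the left and siCtrl on the right; points are libraries with their replicate number, horizontal lines are means and bars are the SD. Gata4 and Gata6 lie higher and Dab2 and Pdgfra lower in all 3 siRSL24D1 libraries than in all 3 siCtrl libraries.

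All 9 were low beside Pou5f1 in the same cells. Per kilobase of exon, Pdgfra had the highest level of the 9, at 0.962% of the level of Pou5f1 in siRSL24D1 and 1.10% in siCtrl, and Sox7 had the lowest, at 0.0293% in siRSL24D1 and 0.0113% in siCtrl. The order in siCtrl was Pdgfra at 2.37 ± 0.08 CPM per kilobase, Dab2 at 1.53 ± 0.07, Foxa2 at 1.02 ± 0.09, Gata4 at 0.467 ± 0.045, Sox17 at 0.311 ± 0.040, Gata6 at 0.274 ± 0.034, Cubn at 0.241 ± 0.027, Hnf4a at 0.083 ± 0.022 and Sox7 at 0.024 ± 0.010 (SD, n = 3). The order of means was the same in siRSL24D1. Sox17 and Gata6, and Gata6 and Cubn, had overlapping ranges in both groups, so their places in the order are not resolved. Hnf4a and Sox7 overlapped in siRSL24D1. Per kilobase of the longest transcript instead of all exons, the siCtrl means were 0.536 for Gata4, 0.471 for Gata6 and 0.457 for Sox17. The order of these genes thus also depends on the length used. In bulk RNA, a change in the number of cells that express a gene and a change in the RNA per cell cannot be told apart.

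**Figure D2:**
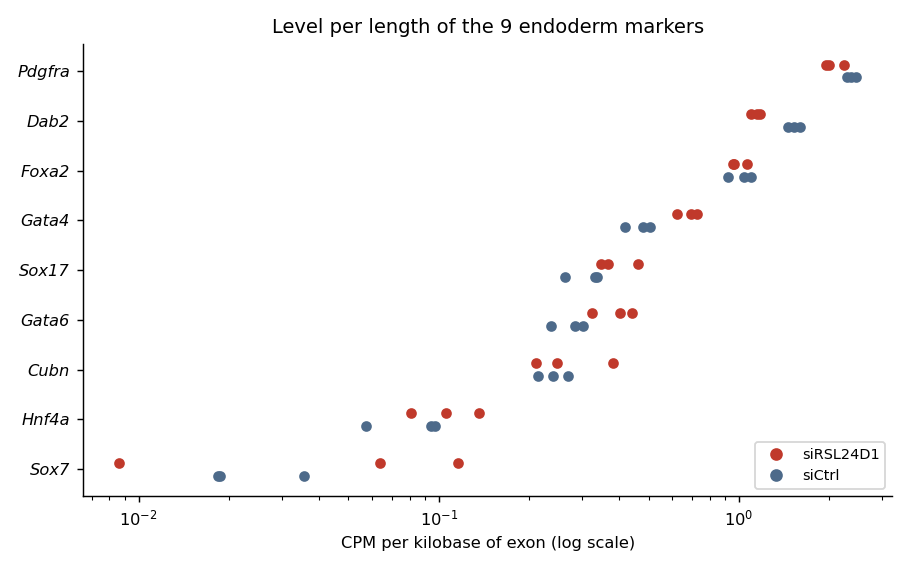
Level per kilobase of exon of each endoderm marker (x axis, log scale), sorted by the siCtrl mean; each point is 1 library, with siRSL24D1 drawn above siCtrl. The markers span from 2.37 CPM per kilobase for Pdgfra down to 0.024 for Sox7 in siCtrl, and the order of means is the same in siRSL24D1.

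The GATA zinc finger factors both rose. Gata6 (chromosome 18, 11052064 to 11085635, plus strand, GRCm38), which starts the primitive endoderm programme in the mouse blastocyst, was at 2.61, 2.11 and 2.86 CPM in siRSL24D1, against 1.97, 1.54 and 1.85 CPM in siCtrl. The lowest siRSL24D1 library lay above the highest siCtrl library, but by a small margin. These levels rest on 74 to 95 counts per library in siRSL24D1 and 50 to 65 in siCtrl. On the log2 scale the change was 0.50 (SE 0.17, edgeR adjusted p = 0.0435). That call was lost with each library left out in turn except siRSL24D1 2: the adjusted p was 0.106 without siRSL24D1 1, 0.142 without siRSL24D1 3, 0.0595 without siCtrl 1, 0.151 without siCtrl 2 and 0.0711 without siCtrl 3. It was also lost under upper-quartile scaling (0.0522), limma-voom (0.0525) and the DESeq2 test (0.105).

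Gata4 (chromosome 14, 63198922 to 63271692, minus strand), which acts after Gata6 in the primitive endoderm and also in the heart, was at 2.84, 2.42 and 2.71 CPM in siRSL24D1, against 1.97, 1.63 and 1.88 CPM in siCtrl. All 3 siRSL24D1 libraries lay above all 3 siCtrl libraries, and within each group the spread (7.95% and 9.58% of the mean) was no larger than counting error alone gives (10.7% and 12.8%). Its log2 fold change was 0.54 (SE 0.14, edgeR adjusted p = 0.0153). The call was lost under the DESeq2 test (adjusted p = 0.0581) and without siCtrl 2 (0.0659), the siCtrl library with the lowest value. The ratio of Gata4 to Gata6, which does not depend on how libraries are scaled, was 1.09, 1.15 and 0.947 in siRSL24D1, against 1.00, 1.06 and 1.02 in siCtrl. The groups overlapped in that ratio (two-sided exact permutation p = 0.6, 0.6 adjusted over 3 ratios).

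The SOX F factors were less certain. Sox17 (chromosome 1, 4490931 to 4497354, minus strand), needed for both primitive and definitive endoderm, was at 1.75, 2.19 and 1.65 CPM in siRSL24D1, against 1.60, 1.26 and 1.58 CPM in siCtrl. The groups did not overlap, which was also true of 26.8% of all genes tested in the upward direction, but siRSL24D1 3 and siCtrl 1 were close. The log2 fold change of 0.33 did not pass (standard error 0.18, edgeR adjusted p = 0.165), and its 95% interval ran from a fold of 0.952 to 1.67. Sox7 (chromosome 14, 63943673 to 63950732, plus strand), a late primitive endoderm factor that endothelial cells also use, had 12, 1 and 7 counts in siRSL24D1, against 2, 2 and 4 in siCtrl. The highest and the lowest of the 6 libraries were both siRSL24D1 libraries. The sums, 20 counts in siRSL24D1 and 8 in siCtrl, had a ratio of 2.50, with a 95% interval of 1.05 to 6.56 (exact conditional binomial) that covers counting error only. Without a filter on low counts Sox7 had an adjusted p of 0.273 over 19740 genes.

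Foxa2 (chromosome 2, 148042877 to 148046969, minus strand), a forkhead factor that opens chromatin in definitive and visceral endoderm, was at 2.52, 2.28 and 2.26 CPM in siRSL24D1, against 2.60, 2.18 and 2.46 CPM in siCtrl. The groups overlapped. The log2 fold change was -0.04 (edgeR adjusted p = 0.827), with a 95% interval from a fold of 0.791 to 1.20. Hnf4a (chromosome 2, 163506808 to 163572910, plus strand), the nuclear receptor of visceral endoderm and liver, was at 0.510, 0.656 and 0.391 CPM in siRSL24D1, against 0.454, 0.277 and 0.469 CPM in siCtrl. With 13 to 23 counts per library in siRSL24D1 and 9 to 16 in siCtrl, its log2 fold change of 0.37 (edgeR adjusted p = 0.367) had a 95% interval from a fold of 0.790 to 2.13, so a doubling could not be told from no change.

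Summed over the 6 transcription factors, the level was 10.6, 9.69 and 10.1 CPM in siRSL24D1, against 8.65, 6.94 and 8.35 CPM in siCtrl. The surface and endocytic markers Pdgfra, Dab2 and Cubn summed to 36.8, 31.7 and 31.2 CPM in siRSL24D1, against 39.0, 37.3 and 39.4 CPM in siCtrl. The sums of the factors were higher, and those of the surface and endocytic genes lower, in all 3 siRSL24D1 libraries than in any siCtrl library. The second gap was small, with siRSL24D1 1 at 36.8 and siCtrl 2 at 37.3 CPM. Of all single genes tested, 26.8% were so separated upward and 26.2% downward. Pdgfra, at a mean of 20.7 CPM in siRSL24D1, made up most of the second sum. Foxa2 and Cubn did not follow their sums (log2 fold changes of -0.04 and 0.21, neither called).

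Dab2 (chromosome 15, 6299788 to 6440712, plus strand), a clathrin adaptor that sorts receptors in endoderm and is induced by GATA factors, fell. It was at 8.60, 8.44 and 8.03 CPM in siRSL24D1, against 11.2, 10.7 and 11.8 CPM in siCtrl. The groups were far apart relative to their spread. Among all genes tested, 26.2% had siRSL24D1 wholly below siCtrl. Its log2 fold change was -0.43 (SE 0.07, edgeR adjusted p = 0.00249), a fold of 0.744. The call held in every alternative tried, with an adjusted p of at most 0.0137, that without siRSL24D1 3.

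Pdgfra (chromosome 5, 75152292 to 75198215, plus strand), a receptor tyrosine kinase that marks early primitive endoderm and also mesoderm, was at 22.5, 19.6 and 20.0 CPM in siRSL24D1, against 24.5, 23.0 and 23.7 CPM in siCtrl. The groups did not overlap, and siRSL24D1 1 lay just under siCtrl 2. On the log2 scale the change was -0.20 (SE 0.07, edgeR adjusted p = 0.0445). That call was lost with each library left out in turn except siRSL24D1 1: the adjusted p was 0.118 without siRSL24D1 2, 0.139 without siRSL24D1 3, 0.135 without siCtrl 1, 0.0823 without siCtrl 2 and 0.0566 without siCtrl 3. It was also lost with library totals in place of TMM scaling (0.0783) and under the DESeq2 test (0.0619).

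Cubn (chromosome 2, 13276338 to 13491813, minus strand) encodes cubilin, the large receptor by which visceral endoderm takes up maternal nutrients. It was at 5.67, 3.71 and 3.16 CPM in siRSL24D1, against 3.21, 3.60 and 4.02 CPM in siCtrl. siRSL24D1 1 was the highest library and siRSL24D1 3 the lowest, a spread of 31.6% of the mean where counting error alone gives 8.52%. The log2 fold change was 0.21 (edgeR adjusted p = 0.47), and it was -0.07 without siRSL24D1 1. Gata6, Dab2, Pdgfra, Sox17 and Cubn share exon bases with annotated transcripts of the opposite strand, and whether the counting used strand is not known. The library that was highest within siRSL24D1 thus differed between markers: siRSL24D1 1 for Gata4, Sox7, Foxa2, Pdgfra, Dab2 and Cubn, siRSL24D1 2 for Sox17 and Hnf4a, and siRSL24D1 3 for Gata6.

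**Figure D3:**
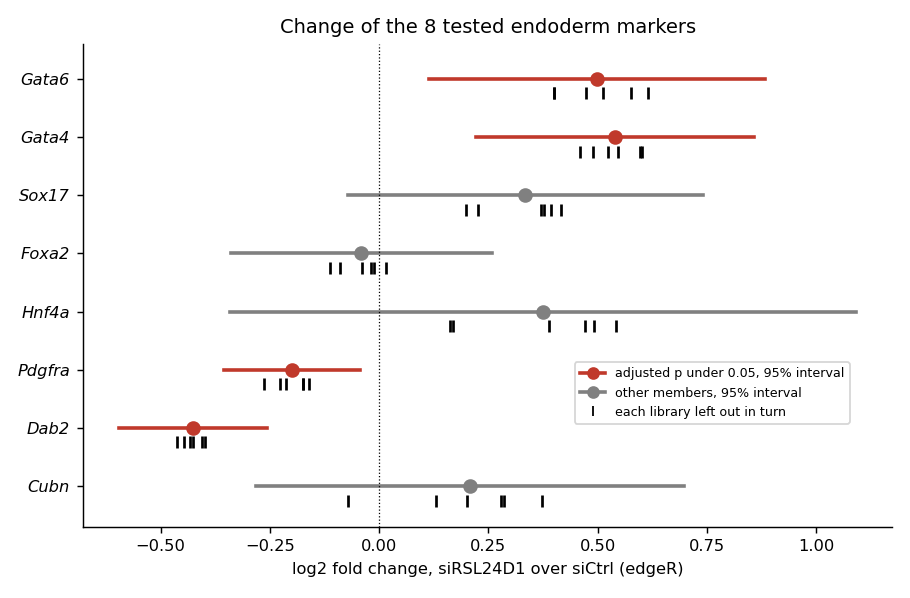
Log2 fold change of the 8 tested endoderm markers, siRSL24D1 over siCtrl (x axis), with 95% intervals from edgeR; red marks an adjusted p under 0.05 and short black ticks are the values with each library left out in turn. The ticks of Gata6, Gata4, Sox17, Hnf4a, Pdgfra and Dab2 each stay on the same side of 0, while those of Foxa2 and Cubn fall on both sides. Dab2 lies at -0.43 and Gata4 at 0.54, but the Gata4 call was lost without siCtrl 2 (edgeR adjusted p = 0.0659).

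GATA6 is known to act on Dab2, and the 2 genes moved in opposite directions. The ratio of Gata6 to Dab2 within a library was 0.304, 0.250 and 0.356 in siRSL24D1, against 0.175, 0.144 and 0.157 in siCtrl. Every siRSL24D1 library was above every siCtrl library (two-sided exact permutation p = 0.1, which is as small as 3 libraries a group can give, and 0.15 adjusted over 3 ratios). The 3 ratios were chosen after the values of their genes were seen. Gata6 alone was higher and Dab2 alone lower in all 3 siRSL24D1 libraries. The ratio of Gata6 to Dab2 therefore had to separate, and its p adds no further result.

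Promoters of the 2 markers that fell are shown because GATA, SOX and FOX factors are members here and their motif letters could be searched in them. The sequences are RefSeq windows on GRCm38.p6, from 250 bases before to 50 bases after an annotated start, written along the gene strand, with any motif match in capitals. The motifs were AGATAA for GATA, ACAAT for SOX and TAAACA for FOX factors, on both strands, and no match of one overlapped a match of another.
Dab2 upstream start, chr15:6299539-6299838, plus strand: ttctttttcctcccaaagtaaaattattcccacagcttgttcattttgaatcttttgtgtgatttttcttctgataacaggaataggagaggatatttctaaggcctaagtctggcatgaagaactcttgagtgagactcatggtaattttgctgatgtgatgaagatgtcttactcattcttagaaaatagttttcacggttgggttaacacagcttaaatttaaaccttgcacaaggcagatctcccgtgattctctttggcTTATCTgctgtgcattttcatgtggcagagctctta
Dab2 downstream start, chr15:6386498-6386797, plus strand: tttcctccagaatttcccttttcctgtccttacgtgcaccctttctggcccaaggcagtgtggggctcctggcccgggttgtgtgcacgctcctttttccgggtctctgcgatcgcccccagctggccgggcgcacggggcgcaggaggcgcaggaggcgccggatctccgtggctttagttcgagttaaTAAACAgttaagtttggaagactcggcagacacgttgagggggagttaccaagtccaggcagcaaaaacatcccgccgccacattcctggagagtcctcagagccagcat
Pdgfra, chr5:75152001-75152300, plus strand: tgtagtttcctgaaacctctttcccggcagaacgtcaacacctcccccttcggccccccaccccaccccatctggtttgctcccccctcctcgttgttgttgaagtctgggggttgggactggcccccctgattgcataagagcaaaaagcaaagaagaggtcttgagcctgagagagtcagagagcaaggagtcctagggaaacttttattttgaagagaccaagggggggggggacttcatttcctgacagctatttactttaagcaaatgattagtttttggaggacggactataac
The upstream Dab2 window held 1 GATA match on the opposite strand, at position 14 after the start, and the downstream one held 1 FOX match. The Pdgfra window held no match to these exact letters. Other spellings of the motifs were not searched in any window. Of 32851 mouse windows of this length, 11.2% held the GATA letters, 31.0% the SOX letters and 13.4% the FOX letters. These shares are per window, and the 5 markers whose windows were counted had 9 windows in all. Among these markers, Foxa2 and Hnf4a also had a GATA match in 1 of their windows, and the first Hnf4a window held all 3 motifs. The number of markers with a match is thus not comparable with the shares per window. A match is a description of letters and not of a bound site.

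Among relatives and cofactors of these transcription factors, a list that also holds Sall4, 5 of 10 tested genes rose. The other 5 did not pass, and the median log2 fold change was 0.43. The 5 that rose were Gata2, Foxa1, Foxq1, Zfpm2 and Sall4 (0.34, edgeR adjusted p = 0.0147). Counts in this and the following lists stand beside the 21.2% called higher and 20.0% called lower among all genes tested. No set test was run, so they are not results about a list as a set. Foxa1, the forkhead relative of Foxa2, rose to 1.56 ± 0.40 CPM in siRSL24D1, against 0.690 ± 0.172 CPM in siCtrl, a log2 fold change of 1.17 (edgeR adjusted p = 0.00791). Foxa3 was at 4.11 ± 0.45 CPM in siRSL24D1 and 4.09 ± 0.62 CPM in siCtrl (adjusted p = 0.98). Gata2, a blood and trophoblast factor, rose to 1.69 ± 0.43 CPM, against 0.790 ± 0.181 CPM in siCtrl, a log2 fold change of 1.09 (adjusted p = 0.0105), and Foxq1 rose by 0.78. Gata3 was at 0.44 (adjusted p = 0.16) and Sox18, the third SOX F factor, at 0.51 (adjusted p = 0.128). The GATA cofactor Zfpm2 rose by 0.43 (adjusted p = 0.0368), a call lost without siRSL24D1 1, siRSL24D1 3, siCtrl 1 or siCtrl 2 (0.102 to 0.124), while its relative Zfpm1 was at 0.34 (adjusted p = 0.0681). The number of genes of this list that rose was 3 without siRSL24D1 1, without siRSL24D1 3 or without siCtrl 2. Gata5 (4 counts in siRSL24D1 and 12 in siCtrl) and Hnf4g (5 counts in each group) were too low to be tested.

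Genes for matrix and secreted proteins that parietal endoderm makes in quantity were listed with Cyp26a1, Serpinh1 and Thbd, which encode neither. This list went both ways: 7 of 15 tested genes rose, Cyp26a1 among them. The 2 that fell were Nid2 and Thbd, and 6 did not pass, with a median of 0.38. Of all genes tested, 21.2% rose and 20.0% fell. The number that fell depended on the library used, and was 1 without any 1 library other than siCtrl 1, 1 with library totals and 4 after a correction for transcript length. Fst, the activin antagonist follistatin, rose to 57.5 ± 3.19 CPM in siRSL24D1, against 29.6 ± 3.44 CPM in siCtrl, a log2 fold change of 0.96 (edgeR adjusted p = 0.000125). Plat, tissue plasminogen activator, rose to 14.4 ± 0.80 CPM, against 7.45 ± 0.36 CPM in siCtrl, also by 0.96. Col4a1, a basement membrane collagen, rose to 286 ± 21.1 CPM, against 171 ± 3.49 CPM in siCtrl. Such genes are also expressed outside the endoderm.

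Of 16 visceral endoderm carriers and HNF4A targets listed, 9 had enough counts to be tested, 2 rose, 2 fell, and the median was 0.01. That is near the 21.2% higher and 20.0% lower among all genes tested. Afp, the classical visceral endoderm marker, had 9 counts over the siRSL24D1 libraries and 2 over the siCtrl libraries, and Ttr had 2 in each group. Apob, the lipoprotein apolipoprotein that HNF4A controls in liver, rose to 4.79 ± 0.20 CPM in siRSL24D1, against 2.03 ± 0.32 CPM in siCtrl, a log2 fold change of 1.23 (edgeR adjusted p = 0.000294). The transferrin receptor gene Tfrc fell by 0.39. The number of genes that fell was 1 without siRSL24D1 2, and under the DESeq2 test 1 gene rose and 1 fell.

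Partners of cubilin and DAB2 in endocytosis went both ways, with 3 of 10 tested genes higher and 2 lower, at a median of 0.04. These counts are near the shares of all genes tested, 21.2% higher and 20.0% lower. Lrp2, which encodes megalin, the co-receptor of cubilin, was at 212 ± 12.1 CPM in siRSL24D1 and 208 ± 21.6 CPM in siCtrl (edgeR adjusted p = 0.769). Amn, the membrane anchor of cubilin, had 28 counts over the siRSL24D1 libraries and 22 over the siCtrl libraries and was not tested. Myo6, a myosin motor that binds DAB2, fell by 0.43 on the log2 scale (adjusted p = 0.00213), close to the -0.43 of Dab2 itself. Dab1, the neuronal relative of Dab2, rose by 0.44 (adjusted p = 0.00632), and Numb, another adaptor of this kind, by 0.21 (adjusted p = 0.0112).

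The PDGF family went both ways. Of 6 tested family members besides Pdgfra, the ligand genes Pdgfa, Pdgfb and Pdgfc rose and 1, Pdgfrb, fell, at a median of 0.14. Among all genes tested 21.2% rose and 20.0% fell. The ligand gene Pdgfd was at -0.27 (edgeR adjusted p = 0.157) and Pdgfrl, a receptor-like gene, at -0.14 (0.132). Pdgfra also fell, but that call was lost with most libraries left out in turn. Pdgfa, the main ligand of PDGFRA, rose to 39.3 ± 1.79 CPM in siRSL24D1, against 21.9 ± 1.09 CPM in siCtrl, a log2 fold change of 0.85 (edgeR adjusted p = 4.65e-05). Pdgfc, a second ligand of that receptor, rose by 0.75 (adjusted p = 0.00488) and Pdgfb by 0.41. Pdgfrb fell to 9.28 ± 1.78 CPM, against 13.3 ± 0.48 CPM in siCtrl (adjusted p = 0.0106). The ratio of Pdgfa to Pdgfra was 1.68, 2.11 and 1.95 in siRSL24D1, against 0.942, 0.918 and 0.902 in siCtrl. The groups did not overlap in that ratio (two-sided exact permutation p = 0.1, and 0.15 adjusted over 3 ratios). Pdgfa alone was higher and Pdgfra alone lower in all 3 siRSL24D1 libraries. Their ratio therefore had to separate, and its p adds no further result.

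Genes that set the choice between epiblast and primitive endoderm also went both ways, with 4 of 12 higher and 5 lower. Among all genes tested the shares were 21.2% and 20.0%. Nanog, which represses Gata6, fell to 176 ± 6.44 CPM in siRSL24D1, against 247 ± 11.2 CPM in siCtrl, and the ligand gene Fgf4 fell to 30.2 ± 1.64 CPM, against 44.3 ± 2.47 CPM in siCtrl (edgeR adjusted p = 0.00033). Fgfr1, which encodes the receptor shared by epiblast and primitive endoderm, rose by 0.28 on the log2 scale (adjusted p = 0.0125), a call at its limit without siRSL24D1 3 (0.05002). Fgfr2, whose receptor marks primitive endoderm within the inner cell mass, was at 15.3 ± 1.38 CPM in siRSL24D1 and 15.3 ± 0.92 CPM in siCtrl (adjusted p = 0.969). The ERK feedback genes Spry4 and Dusp6 rose by 0.70 and 0.62. Of 16 definitive endoderm and anterior streak genes 4 rose and 4 fell, near those shares, at a median of -0.01. Mixl1, a primitive streak homeobox gene, rose by 1.19, Cer1, a secreted Nodal antagonist, fell by 1.04 and Cpm, a carboxypeptidase gene, by 0.95.

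**Figure D4:**
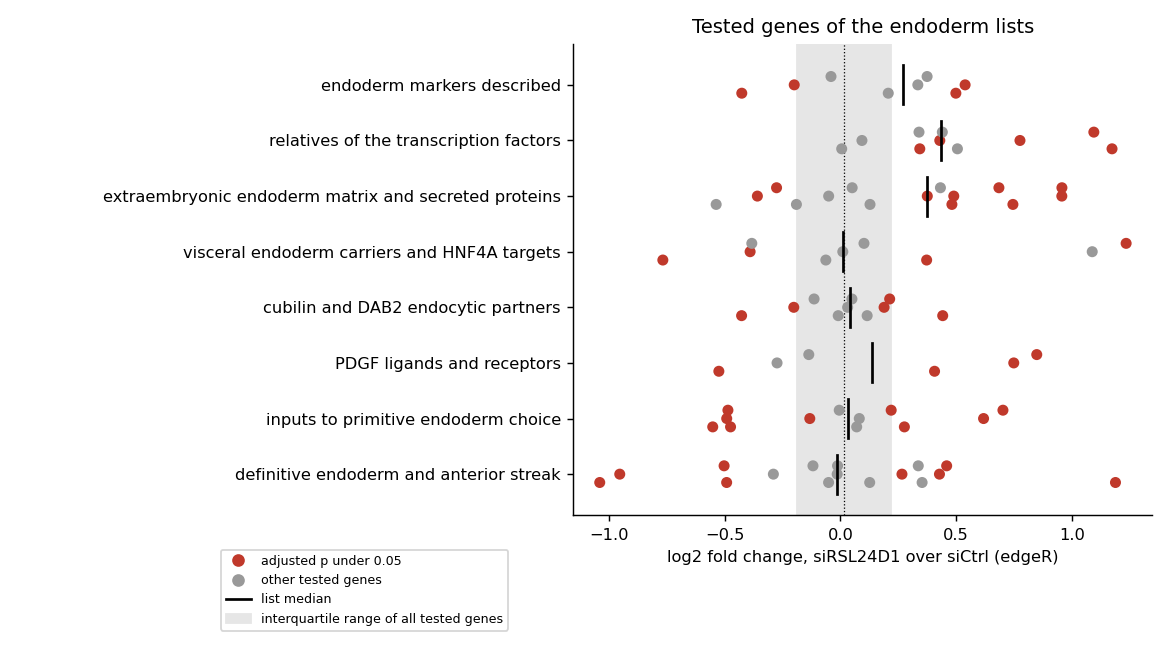
Log2 fold change, siRSL24D1 over siCtrl (x axis), of each tested gene in the endoderm lists (rows); red points passed the test, black bars are list medians, and the grey band is the interquartile range of all 15084 genes tested, from -0.19 to 0.22. The list medians run from -0.01 for definitive endoderm and anterior streak genes to 0.43 for the list of transcription factor relatives and cofactors. The median of all genes tested was 0.02. The band shows the spread of single genes and is no yardstick for a median.

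Several of the 9 markers are also used by other cell types, and markers of these moved as well. Among all genes tested 21.2% rose and 20.0% fell, and no set test was run on these lists. Some genes stand in more than 1 list, here and among the endoderm lists, so the counts are not independent of each other. Hand1, which rose, counts under both mesoderm and trophoblast, and Pdgfrb, which fell, under both the PDGF family and mesoderm. Of 7 tested endothelial and blood markers, which share Sox7 and Sox17, 5 rose and 1 fell (without siRSL24D1 1, siRSL24D1 3, siCtrl 1 or siCtrl 2, 0 fell by edgeR, and 3 rose among genes with at least 1 CPM in 3 libraries), and the list of 10 summed to 74.9 to 79.7 CPM in siRSL24D1, against 66.3 to 72.2 CPM in siCtrl. Of 12 mesoderm and fibroblast markers, which share Pdgfra, 5 rose and 2 fell, with sums of 281 to 297 CPM in siRSL24D1, against 242 to 277 CPM in siCtrl. Of 5 tested cardiac markers, which share Gata4 and Gata6, 1 rose, with sums over 7 genes of 16.0 to 17.2 CPM in siRSL24D1, against 14.3 to 14.4 CPM in siCtrl; that call, for Myh7, was lost without siCtrl 2 (adjusted p = 0.0674) and under the DESeq2 test (0.0989), and 2 genes rose without siRSL24D1 2. Of 8 tested trophoblast markers 5 rose and 1 fell, and sums over 9 genes were 2243 to 2741 CPM in siRSL24D1, against 1760 to 1844 CPM in siCtrl. Most of that sum was the keratin genes Krt8 (mean 1305 CPM in siRSL24D1, 920 CPM in siCtrl) and Krt18 (1104 and 804 CPM). Cdx2, which also rose, was at 5.09 and 1.69 CPM. Of 5 tested neuroectoderm markers 3 rose, with sums over 7 genes of 324 to 391 CPM in siRSL24D1, against 235 to 245 CPM in siCtrl. Every gene of these 5 lists had a count in at least 1 library. The sums follow the most abundant genes and do not describe a list as a whole. Nes made up most of the neuroectoderm sum (301 CPM in siRSL24D1, 211 CPM in siCtrl). Pecam1, the endothelial marker that fell, made up most of that list's sum (46.9 and 54.1 CPM). The largest mesoderm part was T (148 and 114 CPM). Of the 10 pluripotency markers 2 rose and 4 fell, or 2 fell without siRSL24D1 3 or siCtrl 2, with sums of 2254 to 2376 CPM in siRSL24D1, against 2458 to 2811 CPM in siCtrl. The part of these cell type markers in the change of Gata4, Gata6, Dab2 and Pdgfra was not tested.

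The genes closest in pattern to each marker that passed were sought among 12107 genes, by the distance between log2 CPM profiles over the 6 libraries, each centred on its siCtrl mean. For Gata4 these were Unc5c (distance 0.0893) and Samd5 (0.132), with log2 fold changes of 0.50 and 0.51. For Gata6 they were Ptprd (0.143) and Unc5c (0.154), so the GATA pair had Unc5c, a netrin receptor gene, in common. For Dab2 they were Fam129a (0.039) and Stat5b (0.0715), at -0.41 and -0.44. For Pdgfra they were Raver2 (0.066) and Nbdy (0.0664), at -0.20 and -0.18.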

How the data were processed

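The authors deposited 1 table of unscaled estimated counts, with gene symbols in rows and libraries in columns; 21.59% to 22.65% of a library's values were not whole. The submitters' processing notes name STAR 2.7.0f, Salmon 0.14.1 and GRCm38; what each tool did, the gene annotation and any strand setting were not given in the sources used here. The kit is stranded per the labels' protocols, but on the opposite strand annotated transcripts share exon bases with Gata6 (93), Sox17 (804), Dab2 (211), Pdgfra (456 and 166) and Cubn (368), whose reads cannot be separated from theirs if strand was not used.

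Tests had been planned for counts, so estimated counts were rounded. Low genes were removed by filterByExpr (count 10, total 15), TMM factors were applied, and the groups were compared by the two-sided quasi-likelihood F test of edgeR 4.0.16 in R 4.3.3, with Benjamini-Hochberg adjustment over all genes. Levels are TMM-scaled CPM; lengths and coordinates are from GENCODE M21 (GRCm38), in which 22304 of 22332 symbols were found, and levels per kilobase use the union of a gene's exons. The edgeR test was checked on simulated counts. Alternatives were DESeq2 size factors, library totals, upper-quartile scaling, no filter, a minimum of 1 CPM in 3 libraries, limma-voom (limma 3.58.1), the DESeq2 1.42.0 Wald test, a block for replicate number, loess corrections for transcript length and GC content with and without it, an adjusted p under 0.01 and leaving out each library; unrounded counts were added after seeing the data. The markers, lists and rules were chosen with earlier results of these data known. By the naming rule, all 9 markers, their partners, relatives and inputs, and up to 3 called genes of each list are named, and for each called marker the 2 genes nearest in pattern (average log2 CPM of at least 1). The list of cubilin and DAB2 partners holds 1 gene under 2 symbols. Nid2, Thbd, Cyp26a1, Serpinh1, Sall4, Pdgfb, Pdgfd, Pdgfrl, Afp, Ttr, Krt8, Krt18, Pecam1, T and Pou5f1 were named after their values were seen. Some genes of the lists are counted but not reported by name here.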

Additional observations from a re-analysis of the deposited data

How the results depend on the processing

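The number of markers that rose (2) and fell (2) was the same with DESeq2 size factors, no filter, the 1 CPM filter, unrounded counts, the block, and the length and GC corrections with and without the block. With library totals 1 fell, with upper-quartile scaling 1 rose, with limma-voom 1 rose, with the DESeq2 test 0 rose and 1 fell, and at an adjusted p under 0.01 0 rose and 1 fell, when 1886 genes rose and 1867 fell in all. At an unadjusted p under 0.05 the DESeq2 test had 2 higher and 2 lower. Leaving out each library, 0 to 2 markers rose and 1 to 2 fell; the 0, by edgeR without siCtrl 2, was 1 at an unadjusted p under 0.05. Over all genes 2210 to 3356 rose and 2147 to 3285 fell. The direction of Gata4, Gata6, Sox17, Hnf4a, Dab2 and Pdgfra was kept in all settings. When libraries were left out in turn, log2 fold changes spanned 0 for Foxa2 (-0.112 to 0.0164), Cubn (-0.0703 to 0.372), Foxa3 (-0.119 to 0.0801), Fgfr2 (-0.0674 to 0.0632) and Lrp2 (-0.0171 to 0.108). Foxa3 was also at -0.0049 with DESeq2 size factors, -0.022 with upper-quartile scaling, -0.00024 without a filter and -0.0051 under the DESeq2 test, Fgfr2 was at 0.0193 with library totals, and Lrp2 was at -0.13 after the length correction, with or without the block. The cause was not tested. The replicate number as a block left 2 markers higher and 2 lower, with 3327 genes higher and 3104 lower in all. With it Zfpm1 passed (edgeR adjusted p = 0.019) and 1 gene of the matrix and secreted protein list fell in place of 2. Deviations of same-numbered libraries correlated at -0.22, 0.14 and 0.17, and those of different-numbered libraries at -0.40 to 0.34. With 3 libraries a group, these values cannot show whether the numbers pair the libraries. Depth limits Sox7 (1 to 12 counts) and Hnf4a (9 to 23).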
